A study of Mus musculus with 6 samples.

Results

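Potassium channel genes were examined in MIN6, a line of mouse beta cell origin that secretes insulin and stands in for pancreatic beta cells in culture. The members are the protein-coding genes whose symbol starts with Kcn, except Kcnj11, and there were 93 of them among 55487 genes with distinct identifiers, of which 21936 are protein-coding. The rule itself uses names and biotype only. RNA came from 2 groups of cells, each with 3 RNA-seq libraries. One group had been transfected with full-length PTHrP, the parathyroid hormone-related protein encoded by Pthlh, and the other with the DsRed vector, which encodes a red fluorescent protein and which one label calls empty. Both groups were given their DNA with Lipofectamine at confluency, and RNA was taken at most 3 days later. The transfection was transient, and the share of cells that took up the DNA is not given in the labels. No label says that the 3 libraries of a group were grown separately, and p-values therefore reflect only how far these libraries differ, which may be technical.

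Each library held 84427033 to 94613684 counts assigned to genes. Pthlh had 697, 553 and 797 counts in the PTHrP libraries, against 0, 4 and 8 counts in the DsRed libraries, in keeping with the labels. The 12 beta cell markers checked were all present, the lowest at 10.9 CPM in any library, where CPM is a count scaled to the size of its library, and 21 of 31 markers of other islet, acinar, ductal, endothelial, fibroblast, immune and neural cells were under 1 CPM in every library. Among the others, Gcg averaged 159 CPM with PTHrP, against 148 CPM with DsRed, and Ttr 214 CPM with PTHrP and 222 CPM with DsRed. The library of PTHrP replicate 2 stood apart, with a chi-square per gene of 46.1 to 56.5 against the 5 others, where the other pairs had 8.25 to 31.0. Some of the results that rest on it are therefore given with and without it.

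Potassium channels let potassium leave the cell and so pull the membrane potential back toward rest. In the beta cell, closure of the ATP-sensitive channel (Kcnj11 with Abcc8) by glucose metabolism depolarises the membrane, and calcium entry then triggers insulin release. Voltage-gated channels of the Kv2 and ERG families repolarise each action potential, calcium-activated channels shape bursts and pauses, and two-pore-domain channels carry background current. Silent Kv subunits form no channel of their own and assemble with Kv2 subunits, while KChIP, Kv beta and similar auxiliary subunits change the gating or surface level of the pore subunits.

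The pore subunits share a short stretch of sequence, the selectivity filter, which lines the narrowest part of the pore and passes potassium in preference to sodium. In the longest complete coding sequence of each gene, a run of 5 codons was searched in frame, namely threonine or serine, then valine, isoleucine, leucine or threonine, then glycine, then tyrosine, phenylalanine or leucine, then glycine. All 76 pore-forming members held it, and none of the 17 auxiliary members did. The 14 two-pore-domain members held it 2 times each and the other 62 members 1 time. It was also found in 271 of 21302 other protein-coding genes, or 1.27%. The central aromatic position was a tyrosine codon in 61 of the matches, phenylalanine in 26 and leucine in 3. The member with the highest RNA level per kilobase of exon is shown here for 6 of the pore families, to let their filters be compared, with Kcnh2 and Kcnma1 added as the second ERG gene by level and the BK channel pore. Each line gives 39 bases of coding strand, 5′ to 3′, with the 15 bases of the filter codons in capitals.
Kcnh6: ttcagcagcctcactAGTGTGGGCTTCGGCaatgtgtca
Kcnh2: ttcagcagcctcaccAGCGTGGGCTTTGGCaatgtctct
Kcnd1: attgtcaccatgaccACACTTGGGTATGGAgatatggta
Kcnf1: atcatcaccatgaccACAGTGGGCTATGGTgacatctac
Kcnu1: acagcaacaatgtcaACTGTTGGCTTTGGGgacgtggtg
Kcnma1: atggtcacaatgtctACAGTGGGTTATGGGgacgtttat
Kcnk9 first filter: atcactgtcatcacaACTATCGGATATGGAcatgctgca
Kcnk9 second filter: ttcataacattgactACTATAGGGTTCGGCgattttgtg
Kcna3: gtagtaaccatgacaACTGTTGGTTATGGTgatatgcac

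These sequences are from GENCODE M21 transcripts on the mouse build GRCm38. In that build the Kcnh6 bases lie on the + strand at chr11:106019061-106019099 and those of Kcnh2 on the - strand at chr5:24325546-24325584, each within 1 coding exon. The Kcnma1 bases lie within 1 coding exon on the - strand at chr14:23528404-23528442. The stretches of Kcnd1 and of the first filter of Kcnk9 are each split over 2 coding exons. Kcnh6 and Kcnh2 have a phenylalanine codon at the aromatic position, as has Kcnu1, where Kcnd1, Kcnf1, Kcnma1 and Kcna3 have tyrosine.

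A few genes carried most of the potassium channel RNA. Levels are compared between genes as CPM, scaled with TMM factors, per kilobase of annotated exon. Of the 93 members, 15 averaged at least 10 CPM, 30 at least 1 CPM and 63 less than 1 CPM, and 23 were under 0.1 CPM. Every member had a count in some library, and 22 had 0 counts in at least 1. The 12 members with the highest level per kilobase made up 85.2% of the summed level of all 93, and the first 3 made up 50.2%. The same 12 led when the longest transcript was used as the length.

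Kcnh6, which encodes an ERG-type voltage-gated channel, led with a level of 30.5 ± 2.58 CPM per kilobase (SD, n = 6 libraries), at the 91.0 percentile of the genes tested. Its relative Kcnh2 (Kv11.1, ERG1) followed at 13.7 ± 1.73 CPM per kilobase. Then came Kcnip1, the calcium-binding Kv4 partner KChIP1, at 10.3 ± 1.19, and Kcnd1, which encodes the Kv4.1 pore, at 6.87 ± 0.85 CPM per kilobase. The redox-enzyme-like Kv beta subunits Kcnab3 and Kcnab2 stood at 6.09 ± 0.23 and 5.37 ± 0.43 CPM per kilobase. Kcnf1, the silent subunit Kv5.1, stood at 3.83 ± 0.59. Kcnip4 and Kcnip3, 2 further KChIP genes, had 2.83 ± 0.32 and 2.32 ± 0.14, Kcnh3 (Kv12.2) 2.49 ± 0.13, and Kcnk9, the two-pore-domain channel TASK-3, 2.21 ± 0.28 CPM per kilobase.

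The ranges over libraries were separate at 3 steps. The library ranges did not overlap between Kcnh6 (26.9 to 34.1 CPM per kilobase) and Kcnh2 (11.3 to 16.3), between Kcnip1 and Kcnd1, and between Kcnab2 and Kcnf1. All other neighbours among the first 12 overlapped in range. Within each library, though, Kcnh2 was above Kcnip1, and both Kcnd1 and Kcnab3 were above Kcnab2. Kcnip4 was likewise above Kcnh3, and Kcnh3 above Kcnip3, in each library. Kcnd1 and Kcnab3 changed places between libraries, as did Kcnk9 with Kcnh3 and Kcnip3. Kcnf1 overlapped Kcnip4, while its lowest library, at 2.73 CPM per kilobase, lay above the highest of Kcnh3, Kcnip3 and Kcnk9. These orders and ranges are for the union of exons as the length. With the longest transcript instead, Kcnab2 (mean 7.63 CPM per kilobase) stood above Kcnab3 and Kcnd1 (6.87 each). Kcnh2 and Kcnip1 were then close, at 15.7 and 15.6, and Kcnh3 (3.88) was just above Kcnf1 (3.83). For scale, the median of all genes tested was 1.57 CPM per kilobase. Abcc8, the sulfonylurea receptor that partners Kcnj11, was at 199 CPM per kilobase, and Kcnj11 itself at 7.44.

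**Figure D1:**
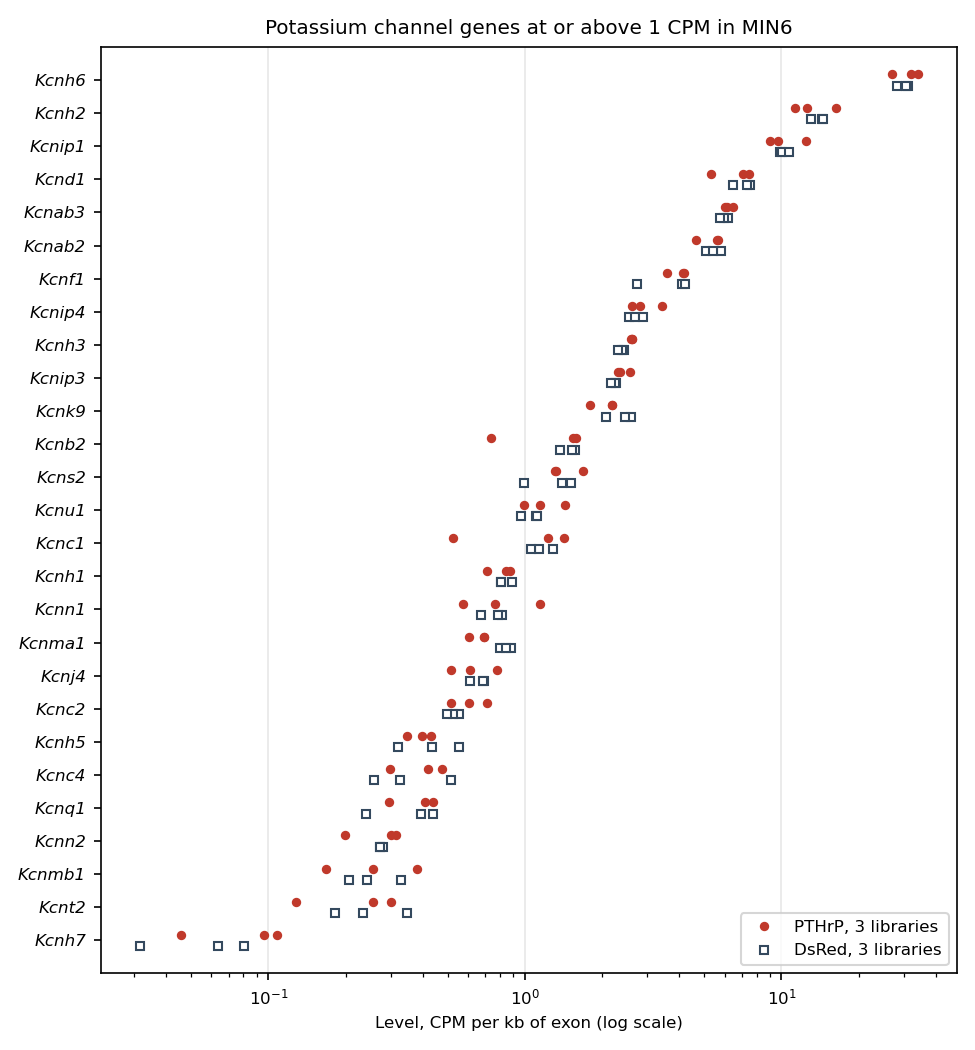
Level of 27 members that averaged at least 1 CPM, in CPM per kilobase of exon on a log axis, one point per library, PTHrP and DsRed. Kcnh6 stands alone at the top, and most genes below it overlap their neighbours.

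By family, the EAG/ERG genes made up 44.4% of the summed level per kilobase and the auxiliary subunits 25.8%. Kv4 genes made up 6.44%, silent Kv subunits 5.14% and Kv3 genes 3.49%. The calcium- or sodium-activated channels, grouped with the Kcnma1 relative Kcnu1, made up 3.08%. Kcnu1 was the highest of that group, at 1.13 CPM per kilobase. The two-pore-domain channels made up 2.62%, the inward rectifiers 1.36%, KCNQ genes 0.651% and Kv1 genes 0.307%. The inward rectifier share leaves out Kcnj11, which is not a member and was at 7.44 CPM per kilobase. In bulk RNA, fewer cells with a channel and less RNA per cell cannot be told apart.

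Several channels with described roles in beta cells were scarce here. Kcnk16, which encodes the islet two-pore-domain channel TALK-1, had 0, 4 and 2 counts in PTHrP and 12, 0 and 12 counts in DsRed. A count of 0 in these libraries allows up to 0.0315 to 0.0353 CPM, for counting error only. Kcng2, a silent subunit, had 15 counts over all 6 libraries, and Kcnk2 (TREK-1) had 37. Kcna2 averaged 0.799 CPM, Kcnd3 0.240 CPM, Kcnn3 0.256 CPM, Kcnn4 0.141 CPM, Kcnt1 0.973 CPM, Kcnmb2 0.281 CPM and Kcnmb4 0.133 CPM, and Kcnk1 (TWIK-1) was at 0.0940 CPM. Other calcium-activated channels had more CPM than these. Kcnma1, the BK channel pore, averaged 12.8 CPM, Kcnn1 (SK1) 3.64 CPM and Kcnn2 (SK2) 2.04 CPM. Per kilobase of exon, Kcnma1 was at 0.752 CPM, Kcnn1 at 0.794 and Kcnn2 at 0.273, with an exon length of 16976 bases for Kcnma1. Kcnu1, a relative of Kcnma1 best known from sperm, was at 1.13 CPM per kilobase. Kcnmb1, the BK beta subunit of smooth muscle, was at 0.263 CPM per kilobase.

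The comparison of PTHrP with DsRed asks which genes differ between the groups. Without untransfected cells, a response to PTHrP cannot be told apart from one to DsRed. No potassium channel gene passed the test. Of the 93 members, 67 had enough counts to be tested, and the other 26 had at most 29 counts in any library. With the edgeR quasi-likelihood test, adjusted over all 21141 genes tested at a threshold of 0.05, 0 of 67 were called, against 0.0426% of all genes tested, 0.0189% higher and 0.0237% lower. An unadjusted p under 0.05 was seen for 4 of 67, or 5.97%, where the background was 8.9%. DESeq2 gave an adjusted p to 28 of the 67 and called 0 of them, where 1.09% of the genes it adjusted were called. The other 39 could not be called by it, and 6 of the 67 had an unadjusted p under 0.05, of which 2 were among the 28. The limma-voom fit called 0 of 67, with 4 at an unadjusted p under 0.05. The log2 fold change was positive for 30 members and negative for 37, with a median of -0.03, beside -0.01 over all genes tested. The groups did not overlap for 12 members, or 17.9%, 5 higher and 7 lower, and for 16.3% of all genes tested. These shares are near those of all genes.

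The summed level of the members differed between the groups by less than the spread between libraries. It was 602, 534 and 581 CPM in the PTHrP libraries, against 588, 588 and 568 CPM in the DsRed libraries. Per kilobase the sum was 108.5 ± 4.26 CPM with PTHrP and 108.3 ± 2.63 CPM with DsRed (SD, n = 3 each).

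How tightly a change was bounded depended on the level. The 30 members at 1 CPM or more had a median absolute log2 fold change of 0.12 with a median SE of 0.17, 15 of them positive and 15 negative. For 14 of these 30 the 95% interval lay within ±0.5 on the log2 scale. The 37 tested members under 1 CPM had a median absolute log2 fold change of 0.47 with a median SE of 0.54, so a difference of that size was within about 1 SE.

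**Figure D2:**
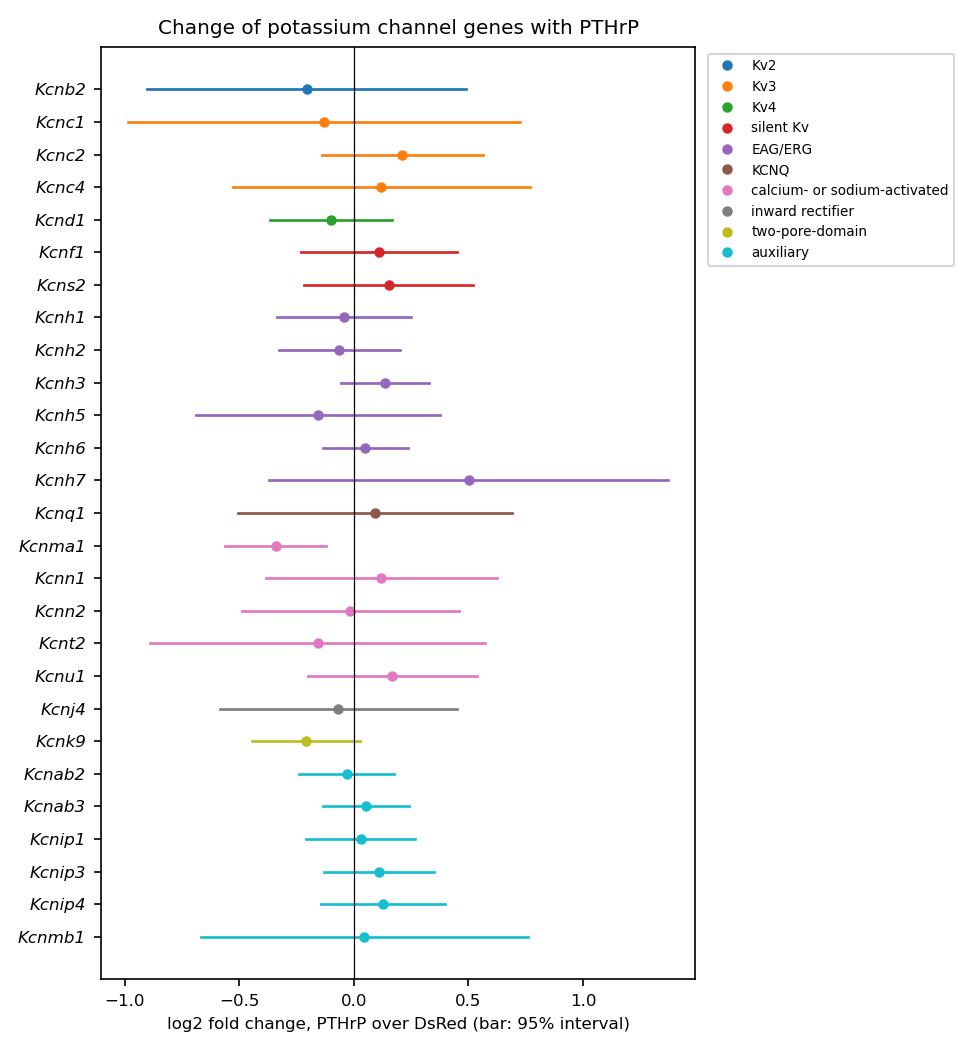
Log2 fold change, PTHrP over DsRed, of 27 tested members that averaged at least 1 CPM, coloured by family, with 95% intervals from the edgeR fit. None passed the adjusted threshold, and most intervals cross 0.

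The leading ERG genes had small differences. Kcnh6 (Kv11.2, ERG2) had levels of 34.1, 26.9 and 32.0 CPM per kilobase in PTHrP libraries, against 31.0, 30.6 and 28.2 in DsRed libraries. The PTHrP libraries lay at both ends of the range. The log2 fold change was 0.05 with a 95% interval of -0.13 to 0.23 (edgeR, adjusted p = 0.906). Kcnh2 had 60.9, 78.7 and 54.9 CPM with PTHrP, against 63.3, 69.6 and 70.5 CPM with DsRed. Its log2 fold change was -0.06 (95% interval -0.33 to 0.20, adjusted p = 0.916). Kcnh3 had 15.04, 14.94 and 15.11 CPM in PTHrP, all above the 14.0, 13.8 and 13.3 CPM in DsRed. That difference was 0.14 on the log2 scale (SE 0.09), which did not pass (adjusted p = 0.698), and the exons of Kcnh3 share 1 base with those of Mcrs1 on the opposite strand. Kcnh7, a further ERG gene, had 1.65, 1.46 and 0.693 CPM with PTHrP and 0.972, 0.480 and 1.22 CPM with DsRed. Its exons overlap those of the more abundant Gca over 696 bases on the opposite strand, so its reads are uncertain. Its log2 fold change was 0.50 with an interval of -0.37 to 1.37.

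Kv4 channels and their partners were as close. Kcnd1 had 39.6, 28.1 and 37.5 CPM in PTHrP, against 39.8, 38.7 and 34.3 CPM in DsRed, or -0.10 on the log2 scale (95% interval -0.36 to 0.17). Kcnip1 had 55.8, 77.3 and 60.4 CPM with PTHrP and 61.0, 62.4 and 66.1 CPM with DsRed, a log2 fold change of 0.03 (-0.21 to 0.27). In both genes PTHrP replicate 2 was the library furthest out, low for the pore and high for the auxiliary subunit. Kcnip3, which also acts as a calcium-dependent transcriptional repressor, had 8.14, 9.10 and 8.33 CPM in PTHrP, against 8.03, 7.98 and 7.68 CPM in DsRed. These groups did not overlap, and the difference of 0.11 on the log2 scale had an SE of 0.11 (edgeR, adjusted p = 0.822). Kcnip4 differed by 0.13 (SE 0.12), and its exons overlap those of 5730480H06Rik over 168 bases on the opposite strand. Without PTHrP replicate 2, its highest library, Kcnip4 differed by 0.01 (SE 0.11). The Kv beta genes varied little, with Kcnab3 at 17.8 ± 0.65 CPM for PTHrP, against 17.1 ± 0.57 CPM for DsRed (SD, n = 3 each) and a log2 fold change of 0.05, and Kcnab2 at 29.6 ± 3.12 CPM for PTHrP, against 30.3 ± 2.07 CPM for DsRed and -0.03 on that scale. Of the 12 tested auxiliary genes, 8 had positive and 4 negative fold changes, and 0 passed.

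For Kcnb2 and Kcnc1, of the Kv2 and Kv3 families, 1 library differed more than the groups did. Kcnb2, which encodes Kv2.2, had 24.1, 11.2 and 23.4 CPM with PTHrP, against 23.7, 20.9 and 23.1 CPM with DsRed, so its level in PTHrP replicate 2 was 48.7% of the mean of the other 5 libraries. Its log2 fold change was -0.21 (SE 0.29, adjusted p = 0.888). Kcnf1, which as a silent subunit depends on Kv2 partners, had 20.1, 17.1 and 19.9 CPM in PTHrP, against 19.6, 20.2 and 13.1 CPM in DsRed, where DsRed replicate 3 was the lowest (log2 fold change 0.11, SE 0.15).

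Among the fast-deactivating Kv3 channels, Kcnc1 (Kv3.1) had 13.4, 4.96 and 11.7 CPM in PTHrP and 12.2, 10.7 and 9.97 CPM in DsRed. In PTHrP replicate 2 it was at 42.8% of the mean of the others. Kcnc2 (Kv3.2), at 5.08, 3.67 and 4.32 CPM in PTHrP, against 3.97, 3.74 and 3.56 CPM in DsRed, had a log2 fold change of 0.21 (SE 0.16). Kcnc4 (Kv3.4) had 1.74, 1.09 and 1.53 CPM in PTHrP and 1.19, 1.88 and 0.951 CPM in DsRed.

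**Figure D3:**
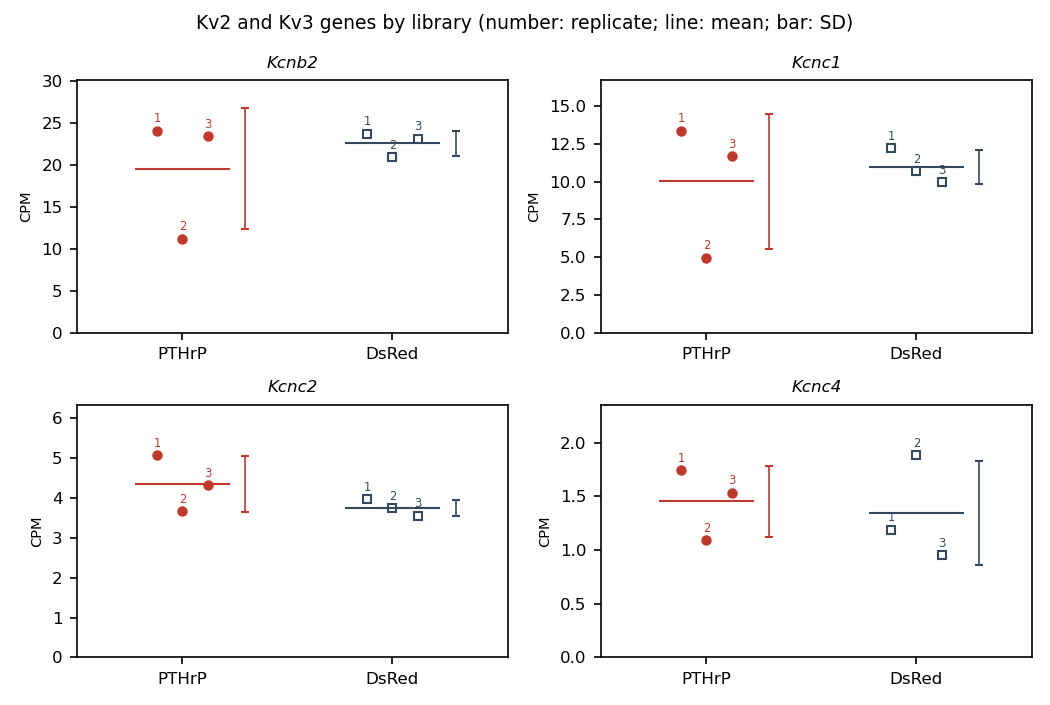
CPM of Kcnb2, Kcnc1, Kcnc2 and Kcnc4 by library, PTHrP left and DsRed right, with numbers for replicates, lines for means and bars for SD. PTHrP replicate 2 lies apart below the others for Kcnb2 and Kcnc1, and not for Kcnc2.

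PTHrP replicate 2 was the lowest of the 6 libraries for 20 of the 67 tested members, or 29.9%, against 22.9% of all genes tested, and the highest for 13, or 19.4%, against 23.4%. Among the 30 members at 1 CPM or more it was the lowest for 13, or 43.3%, and the highest for 7, or 23.3%, where it was the lowest for 27.9% and the highest for 24.6% of the 13127 genes tested at that level. The 7 were Kcnh2, Kcnip1, Kcnab3, Kcnip4, Kcnip3, Kcns2 and Kcnu1. Of the 12 beta cell markers, the same library was the lowest of the 6 for 4 (Pdx1, Mafa, Nkx6-1 and Slc30a8) and the highest for 4 (Iapp, Slc2a2, Ucn3 and Chga). Whether the difference of this library plays a part in the channel levels was not tested. With it left out, 0 of 71 members tested were called, against 0.954% of the genes tested, and 8 had an unadjusted p under 0.05, against 13.0%. The log2 fold change of Kcnc1 was then 0.20 (SE 0.12) and that of Kcnb2 0.07 (SE 0.08). Kcnh2 had -0.22 (SE 0.07, adjusted p = 0.147) and Kcnh6 0.14 (SE 0.06, adjusted p = 0.284) without it.

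The 4 members with an unadjusted p under 0.05 were 1 higher, against 4.92% of all genes, and 3 lower, against 3.98%. Kcns3, the silent subunit Kv9.3, had 0.383, 0.635 and 0.641 CPM in PTHrP, against 0.162, 0.160 and 0.153 CPM in DsRed, with no overlap. Its log2 fold change was 1.80 (SE 0.45, edgeR unadjusted p = 0.00189, adjusted p = 0.303), from 190 counts over the 6 libraries. Kcnma1, the pore of the BK channel that opens with calcium and depolarisation, had the highest CPM of the 4. It had 11.7, 10.3 and 11.8 CPM in PTHrP, each below the 13.6, 14.97 and 14.3 CPM in DsRed. The log2 fold change was -0.34 (SE 0.10, 95% interval -0.56 to -0.12, unadjusted p = 0.00571, adjusted p = 0.370), and it stayed between -0.38 and -0.28 with any 1 library left out. DESeq2 did not call it either, at an unadjusted p of 0.00211.

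Kcnq3 encodes Kv7.3, a subunit of the neuronal M-current channel. Kcnq3 had 0.209, 0.318 and 0.305 CPM with PTHrP, against 0.625, 0.537 and 0.689 CPM with DsRed, and the groups did not overlap (log2 fold change -1.15, SE 0.38, unadjusted p = 0.0118, adjusted p = 0.404). Kcnq1 (Kv7.1), the KCNQ gene with the highest level per kilobase, had 1.21, 1.67 and 1.80 CPM with PTHrP and 0.984, 1.61 and 1.79 CPM with DsRed, and its exons overlap those of the antisense RNA gene Kcnq1ot1 over 121 bases.

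**Figure D4:**
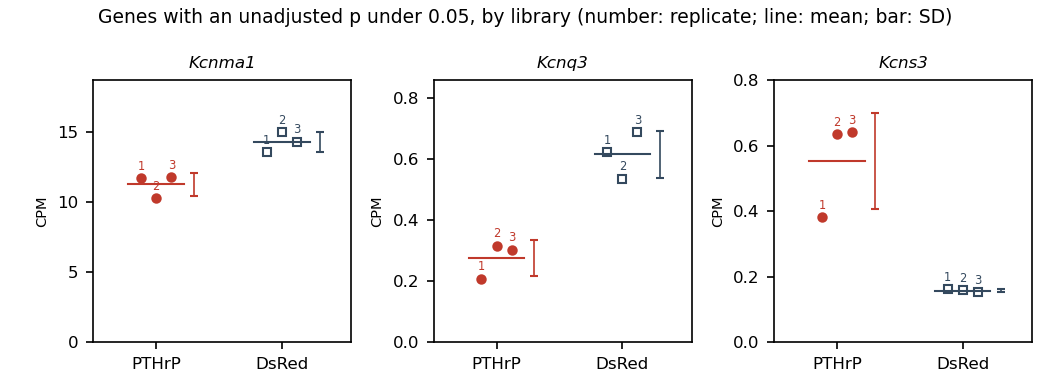
CPM by library of Kcnma1, Kcnq3 and Kcns3, PTHrP left and DsRed right, with lines for means and bars for SD. The groups do not overlap in any of them, Kcns3 being higher and the others lower in PTHrP.

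The next members by p were scarce, at 0.168 to 0.301 CPM, apart from Kcnk9. Kcnk9 had 26.9, 22.1 and 26.8 CPM in PTHrP and 25.4, 32.0 and 30.2 CPM in DsRed, which overlap (log2 fold change -0.21, SE 0.11, adjusted p = 0.612). Kcnk3, the related acid-sensitive background channel TASK-1, had 0.151, 0.682 and 0.494 CPM with PTHrP and 0.0694, 0.137 and 0.273 CPM with DsRed (log2 fold change 1.46, SE 0.67, adjusted p = 0.564). Kcnk13 (THIK-1), with 90 counts in all, stood at 1.36 on the same scale (adjusted p = 0.629), without overlap. On the lower side were Kcnk7 at -1.11 (edgeR, adjusted p = 0.591), Kcnj8 at -1.44 (adjusted p = 0.564) and Kcna4 (Kv1.4) at -1.14 (adjusted p = 0.637). Each had groups that did not overlap, though for Kcnj8 the highest PTHrP and the lowest DsRed library both rounded to 0.137 CPM. The remaining members without overlap were Kcnk4 (0.82) on the higher side and Kcnk6 (-1.59) and Kcnmb3 (-0.91) on the lower. Exons of Kcnk4 overlap those of Catsperz over 587 bases.

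All 8 tested inward rectifier members, which leave out Kcnj11, had negative fold changes, and 0 of them passed or had an unadjusted edgeR p under 0.05. Of the 14 members of this family, the other 6 had too few counts. The shared sign did not hold without PTHrP replicate 2, where 9 were tested, 6 negative and 3 positive. The positive ones were Kcnj4 at 0.06 (SE 0.26), Kcnj6 at 0.14 (SE 0.55) and Kcnj10 at 0.12 (SE 1.57). Kcnj10 was not among the 8 of the main fit. Kcnj14 then had a log2 fold change of -0.85 with an unadjusted edgeR p of 0.0469 (adjusted p = 0.375). Kcnj4 (Kir2.3) had 1.67, 1.11 and 1.31 CPM in PTHrP and 1.49, 1.48 and 1.31 CPM in DsRed, the most of the family. Kcnj2 (Kir2.1), a classical strong rectifier, had 0.604, 0.412 and 0.546 CPM with PTHrP, against 0.671, 0.594 and 0.656 CPM with DsRed. Kcnj12 (Kir2.2) had 0.325, 0.259 and 0.200 CPM in PTHrP, against 0.301, 0.548 and 0.459 CPM in DsRed. Kcnj8, the Kir6.1 pore of vascular ATP-sensitive channels, had 0.116, 0.0706 and 0.137 CPM with PTHrP, against 0.359, 0.137 and 0.393 CPM with DsRed. The G-protein-gated channels Kcnj6 (GIRK2) and Kcnj9 (GIRK3) averaged 0.354 and 0.132 CPM in PTHrP, against 0.372 and 0.150 CPM in DsRed. Summed over the family, the level per kilobase was 1.35, 1.31 and 1.27 CPM in PTHrP, each below the 1.61, 1.60 and 1.71 CPM in DsRed. This sum rests on genes of low count, and no test was made of it.

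Kcnj11, the Kir6.2 pore of the beta cell ATP-sensitive channel, lies outside the set and had a positive fold change. It had 32.4, 30.5 and 32.0 CPM in PTHrP, against 22.9, 23.5 and 22.8 CPM in DsRed. The difference of 0.46 (SE 0.07) on the log2 scale missed the threshold (edgeR, adjusted p = 0.0711). It passed with DESeq2 (adjusted p = 5.18e-05), and in edgeR without a filter on low counts (0.000478) or without PTHrP replicate 2 (0.00379). Those settings called 136, 220 and 213 genes in all, against 9 in the main fit. It did not pass in edgeR with the replicate block (adjusted p = 0.208) or with any other library left out (0.192 to 0.497). Its partner Abcc8 had 1805, 1463 and 1638 CPM in PTHrP and 1567, 1602 and 1581 CPM in DsRed (log2 fold change 0.05, adjusted p = 0.893).

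**Figure D5:**
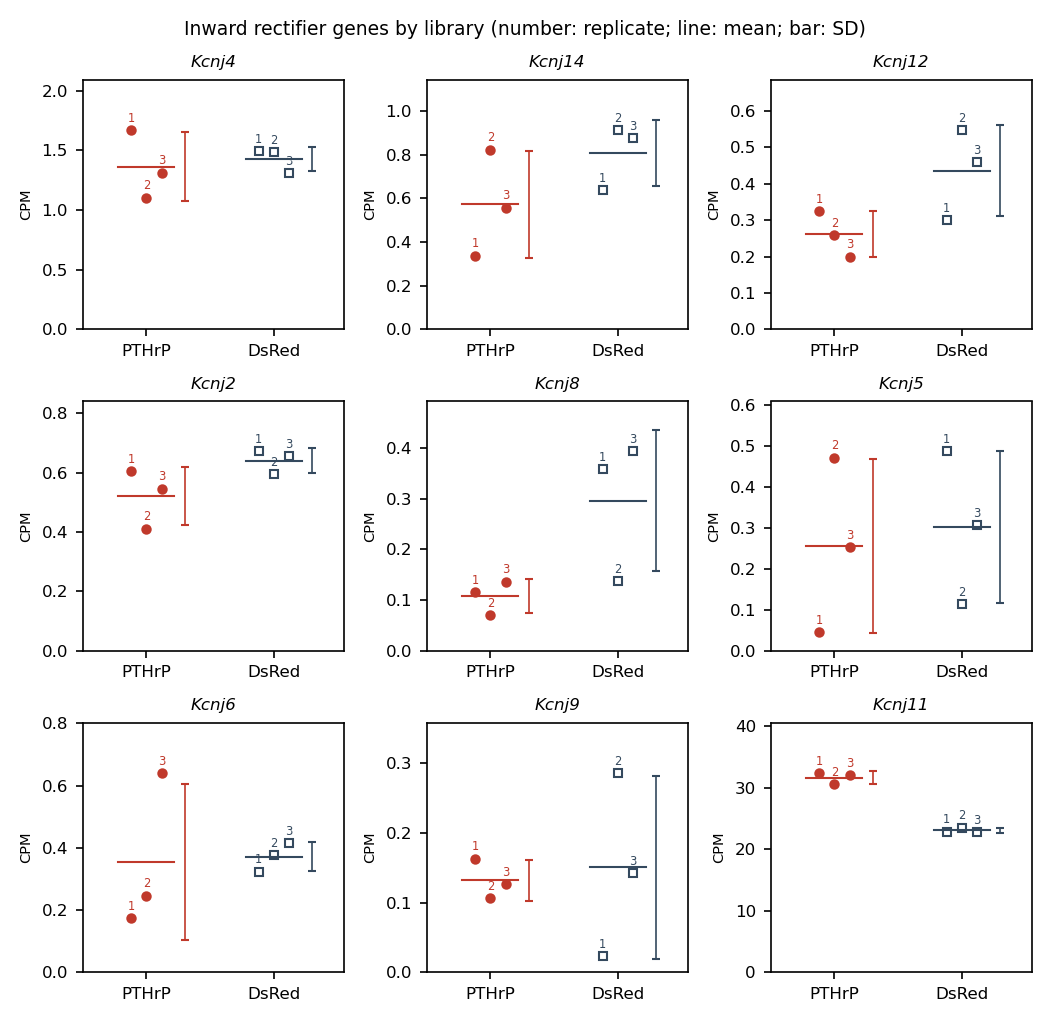
CPM by library of the 8 tested inward rectifier members and of Kcnj11, PTHrP left and DsRed right, with lines for means and bars for SD. Kcnj11 is separated upward in PTHrP, and Kcnj8 is just separated downward, at under 0.4 CPM in every library.

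Of 21 partner genes outside the member set (accessory subunits, anchors and regulators, with the pore gene Kcnj11), 18 were tested and 0 passed, with a median log2 fold change of -0.02. An unadjusted p under 0.05 was seen for Kcnj11 alone. Nedd4, a ubiquitin ligase, averaged 547 ± 17.3 CPM with PTHrP and 588 ± 10.7 CPM with DsRed (SD, n = 3 each), without overlap (log2 fold change -0.11, SE 0.05, adjusted p = 0.575). Abcc9, the sulfonylurea receptor of cardiac and vascular channels, was at 0.418 CPM in PTHrP, against 0.709 CPM in DsRed (log2 fold change -0.76, adjusted p = 0.617), and Cntnap2, which clusters Kv1 channels on axons, at 31.7 CPM in PTHrP, against 27.9 CPM in DsRed (0.18, adjusted p = 0.666). Amigo1, a Kv2 auxiliary protein, averaged 93.6 CPM with PTHrP, against 87.5 CPM with DsRed, and Dpp6, a Kv4 auxiliary protein, 64.5 CPM with PTHrP and 63.9 CPM with DsRed.

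Of 48 genes of ion pumps and other channels that set the potassium gradient or the membrane potential, 39 were tested. None passed, with a median log2 fold change of -0.05. An unadjusted p under 0.05 was seen for 9, or 23.1%, against 8.9% of all genes tested, with 5 higher (background 4.92%) and 4 lower (background 3.98%). Trpm5, a calcium-activated cation channel of beta cells, had 193, 196 and 202 CPM in PTHrP, against 174, 171 and 152 CPM in DsRed (log2 fold change 0.25, SE 0.06, adjusted p = 0.309). Without PTHrP replicate 2 it just passed in edgeR (adjusted p = 0.0499), and with any other library left out it did not (0.463 to 0.894). The pacemaker channel genes Hcn4 (0.27, SE 0.08, edgeR adjusted p = 0.370) and Hcn3 (0.28, SE 0.09, adjusted p = 0.382) were also higher in all 3 PTHrP libraries than in any DsRed library. Lrrc8b, a subunit of volume-regulated anion channels, had 17.6, 17.4 and 21.6 CPM in PTHrP, against 23.5, 23.0 and 23.0 CPM in DsRed (log2 fold change -0.30, SE 0.10, edgeR adjusted p = 0.399). Groups did not overlap for 11 of these 39 genes, or 28.2%, and for 3 of the 18 partner genes, or 16.7%, against 16.3% of all genes tested. Both lists were chosen with earlier results of these data known, so these shares cannot show an excess over all genes.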

How the data were processed

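The authors deposited 1 table of raw counts per gene for 6 libraries. The tools were bcl2fastq, STAR and featureCounts 2.0.3 (Subread) on GRCm38, per the submitters' processing notes. Neither annotation, strand setting nor multi-mapping rule is given in the sources used here, which leaves overlapping genes uncertain. Of 55774 table entries, 287 repeats of 168 identifiers were dropped.

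Counts were filtered with filterByExpr by group, scaled with TMM factors and tested with edgeR 4.0.16 (R 4.3.3; quasi-likelihood F-test, robust, group term alone, two-sided, Benjamini-Hochberg over 21141 genes, threshold 0.05). The biological coefficient of variation was 17.7%. Each SE was approximated from the coefficient and its F value. Fold changes are log2 of PTHrP over DsRed. The level per kilobase divides scaled CPM by the union of exons in GENCODE M21. Family sums and shares were not tested. Alternatives were upper-quartile or RLE factors, unscaled library sizes, 2 other filters, DESeq2 1.42.0, limma-voom 3.58.1, the replicate number as a block and each library left out in turn. The edgeR step was tested on simulated counts.

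The members and lists were chosen with earlier results of these data known. The text names the 12 members highest per kilobase, the 10 with the smallest p, the 6 largest fold changes at 1 CPM or more, members with a role described in beta cells (Kcnk17, also listed, is not analysed here) and the 4 smallest p of each other list. Some of these are not reported here. Kcns2, Kcnu1, Kcna3, Kcnj4, Kcnk4, Kcnk6, Kcnmb3, Abcc8, Amigo1, Dpp6, Pdx1, Mafa, Nkx6-1, Slc30a8, Iapp, Slc2a2, Ucn3 and Chga were named after their values were seen.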

Additional observations from a re-analysis of the deposited data

How the results depend on the processing

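No setting gave a called potassium channel gene. Members with an unadjusted p under 0.05 numbered 1 when 1 CPM in 3 libraries was required and 31 members were tested, and 8 without PTHrP replicate 2. The median log2 fold change of the tested members was -0.03 and ranged from -0.07 to 0.04 with 1 library left out, the positive value being that without PTHrP replicate 2. Among the partner genes 1, Kcnj11, was called with no filter on low counts and with DESeq2, and 0 to 1 with 1 library left out. Among the ion transport genes 0 to 1 were called with 1 library left out, and the 1 was Trpm5. The cause was not tested.

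Fold changes near 0 changed sign with single libraries left out. The log2 range over these fits was -0.02 to 0.14 for Kcnh6, -0.22 to 0.04 for Kcnh2, -0.12 to 0.12 for Kcnip1 and -0.19 to 0.04 for Kcnd1. It was -0.08 to 0.06 for Kcnab2, -0.07 to 0.22 for Kcnf1 and -0.38 to 0.07 for Kcnb2. For the members named by level, p or fold change, the other scalings, filters and tools turned no sign. Signs of the other named members were not compared across those settings.

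With the replicate block 0 members were called and 7 genes in all, against 9 without it. Deviations from the group mean correlated between same-numbered libraries at 0.023, -0.106 and 0.025, so the numbers are not taken as pairs.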
